A study of Mus musculus with 4 samples.

Results

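Classical monocytes were the subject: 97 of the 15439 blood cells kept from 4 single-cell RNA libraries. A cell was a barcode with at least 200 detected genes and at most 10% of its UMIs (unique molecular identifiers, 1 per captured RNA molecule) from mitochondrial genes. It was a member when Csf1r and Ms4a6c together had at least 1 UMI, and when Fn1, F13a1, Ccr2 and Vcan together had at least 2 UMIs and more than Ace, Fcgr4, Treml4, Cd300e, Ear2 and Fabp4 together. It also had to carry at most 1 UMI each of the B cell genes Cd79a, Cd79b and Ms4a1, of the T cell genes Cd3d, Cd3e and Cd3g, and of the neutrophil genes Csf3r, Cxcr2 and Retnlg, summed within each set. Every value of these 21 genes was used to choose the members or the classes they are set against and is given below as a description only. These genes were left untested between monocyte classes, but those with enough counts stayed among the genes tested between Relapsed and Cured. The members numbered 30 and 27 in Relapsed replicates 1 and 2, and 7 and 33 in Cured replicates 1 and 2.

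The Relapsed and the Cured mice had the same strain, age and treatment. All were C57BL/6J, 10 weeks old, had been inoculated with acute lymphoblastic leukaemia (ALL) and received dasatinib, an inhibitor of ABL, SRC-family and other tyrosine kinases. Blood was drawn 1 week into dasatinib with all mice in remission, the drug was continued for 4 more weeks, and a mouse counted as Relapsed (6 mice) or Cured (6 mice) by its state at 100 days. Leukocytes were frozen, thawed and sorted for live cells, and each library pooled 3 mice of 1 outcome, so that the groups differ in what happened after the sample was taken and no cell can be assigned to a mouse. The pool was the replicate, with 2 pools a group, and there was no untreated or leukaemia-free group.

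Classical monocytes, the Ly6C-high subset of mouse blood, leave the bone marrow through the chemokine receptor CCR2 and enter inflamed tissue, where they become macrophages or dendritic-like cells. In blood they can convert into non-classical, Ly6C-low monocytes, which patrol the vessel wall and need the nuclear receptor NR4A1, with C/EBPβ acting upstream of it. Classical monocytes differ among themselves as well: in mice a neutrophil-like form with high Chil3 and a dendritic-like form with MHC class II and Cd209a have been described.

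Library totals lay between 7184045 and 10840397 UMIs and kept cells between 3252 and 4271. Classical monocytes were deeply sampled for this data set, with median UMIs per cell of 5215 and 4588 in the Relapsed libraries and of 5278 and 5246 in the Cured libraries, against 2156 over all non-classical monocytes and 978.5 over neutrophils. Their summed UMIs were 141824 and 132531 in Relapsed, and 36787 and 182505 in Cured, so the 7 cells of Cured replicate 1 give its values the least precision. The median mitochondrial share of a member was 1.36% in either Relapsed library, and 1.00% and 1.23% in the Cured libraries. Across libraries 131 barcode sequences occurred more than once, 2 members had such a sequence, and no member shared its sequence with another member. UMIs of the added sequences GFP_1 and BCR_ABL_1 were found in 0 of 97 members, which allows a share of up to 3.09% of cells with a UMI.

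For most members the label held against markers that the choice did not read. The exceptions include 10 of the 97 cells, with under 10 Lyz2 UMIs, which are described further below. Lyz2, which encodes lysozyme M, was detected in 27 of 30, 27 of 27, 6 of 7 and 31 of 33 members, taking the Relapsed libraries and then the Cured libraries, or 93.8% in all. Its share was 98.6% in non-classical monocytes, 55.8% in neutrophils and between 2.01% and 2.45% in NK, T and B cells, whose level reads as background. Ly6c2, the Ly6C antigen gene, was detected in 24 and 26 members of the Relapsed libraries and in 7 and 27 of the Cured libraries, or 86.6% in all, against 15.5% of non-classical monocytes. It was also detected in 38.5% of T cells and 42.2% of NK cells, which are known to express Ly6C. Hp (haptoglobin) was found in 79.4% of members and Chil3 (a chitinase-like secreted protein) in 62.9%. In the same order of genes non-classical monocytes had 43.5% and 21.7%. S100a8 and S100a9, alarmin genes that neutrophils express strongly, were found in 9.28% and 10.3% of members, against 98.9% and 99.1% of neutrophils.

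**Figure D1:**
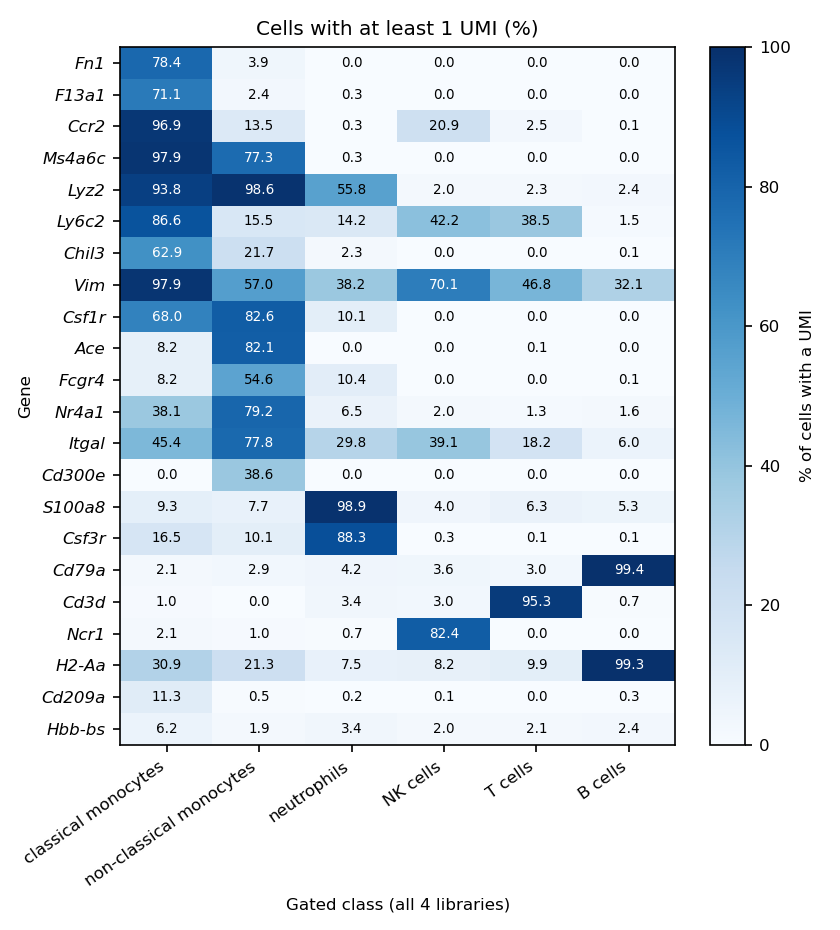
Percentage of cells with at least 1 UMI of 22 genes (rows) in 6 cell classes (columns), pooled over the 4 libraries and coloured on a linear scale. The classical monocyte column is high for Lyz2 (93.8%) and Ly6c2 (86.6%) and low for S100a8 (9.28%), and the genes that the choice of cells read are shown as a description.

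Of the genes that chose the members, Ccr2 was detected in 94 of 97 cells, Ms4a6c in 95, Fn1 (fibronectin) in 76, F13a1 (the A subunit of coagulation factor XIII) in 69 and Vcan (a proteoglycan) in 21. Cells near the rule's limits were less uniform. The 5 members with exactly 2 UMIs over Fn1, F13a1, Ccr2 and Vcan included 1 cell with Lyz2, and the 11 members with 3 such UMIs had a median of 65 Lyz2 UMIs. The 81 members with 4 or more had a median of 165. Just outside, 14 cells with 1 such UMI had a median of 1 Lyz2 UMI, and 13 cells with at least 2 that did not exceed the non-classical genes had a median of 79. A further 13, 6 and 8 cells met the monocyte criteria but carried more than 1 B cell, T cell or neutrophil UMI.

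Markers of other cell types were counted as well, some of which the rule itself had capped. Over the members of each library the 12 neutrophil genes summed to 35 and 22 UMIs in Relapsed and to 2 and 28 in Cured, with Cxcr2, Ly6g, Camp, Ltf and Mmp9 at 0 in every library. The 10 T cell genes summed to 1 and 0 UMIs in Relapsed and 2 and 1 in Cured, with Cd3g, Cd4, Cd8a, Trac, Lef1 and Tcf7 at 0. The 10 B cell genes summed to 18 and 33 UMIs in Relapsed and 9 and 38 in Cured, with Ms4a1 and Pax5 among those at 0. The 12 dendritic cell genes, of which monocytes also express Bst2 and Tcf4 to a degree, summed to 110 and 41 UMIs in Relapsed and 82 and 106 in Cured, with Fscn1 at 0. The 10 NK genes were uneven, at 127 and 1 UMIs in Relapsed and 5 and 47 in Cured. The 7 red cell genes were concentrated in Relapsed replicate 1, at 1295 UMIs against 0 in the other Relapsed library and 0 and 4 in Cured, and 1 cell held 765 of the 787 Hbb-bs UMIs there. The 9 basophil and eosinophil genes were at 0 throughout, and the 9 platelet genes summed to 1 and 0 UMIs in Relapsed and 2 and 0 in Cured.

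The promoters of Ly6c2 and Nr4a1 are shown because these genes are the textbook marker of the classical and the textbook regulator of the non-classical state. Both are RefSeq sequences on GRCm38.p6, running 5′ to 3′ over the 250 bases before an annotated start. Capitals mark the letters GAGGAAGT, a form of the site of PU.1, the master regulator of the myeloid lineage.
Ly6c2, second annotated start, minus strand, chr15:75111938-75112187: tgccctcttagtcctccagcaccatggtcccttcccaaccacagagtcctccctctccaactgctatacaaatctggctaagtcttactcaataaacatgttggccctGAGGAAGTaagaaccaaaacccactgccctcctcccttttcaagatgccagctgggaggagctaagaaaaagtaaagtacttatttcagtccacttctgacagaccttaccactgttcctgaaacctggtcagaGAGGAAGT
Nr4a1, plus strand, chr15:101266596-101266845: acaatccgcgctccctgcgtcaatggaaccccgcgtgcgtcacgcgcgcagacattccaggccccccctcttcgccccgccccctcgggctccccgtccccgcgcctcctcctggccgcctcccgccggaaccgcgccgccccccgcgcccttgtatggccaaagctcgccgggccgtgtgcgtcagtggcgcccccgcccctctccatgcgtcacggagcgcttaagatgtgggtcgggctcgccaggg
This Ly6c2 window holds the PU.1 letters at 2 places, and the window of the other annotated start (chr15:75111972-75112221) holds them at 1. The Nr4a1 window holds none of the 3 motifs searched on both strands, which were GAGGAAGT, the C/EBP letters TTGCNNAA and the NR4A letters AAAGGTCA. Over all 32851 promoters in the table these occur in 2.44%, 9.56% and 1.34%. The windows of Chil3, Ccr2, Lyz2, Spn, Vim and Slfn5 were searched as well and hold none of the motifs. All hits are matches of letters and not measured binding.

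Classical monocytes made up 0.923% of kept cells in Relapsed replicate 1 (exact binomial 95% interval 0.623 to 1.31) and 0.632% in Relapsed replicate 2 (0.417 to 0.918). In the Cured libraries they made up 0.185% (0.0745 to 0.381) and 0.798% (0.550 to 1.12). The highest value belongs to Relapsed replicate 1, the lowest to Cured replicate 1, and the groups overlap. The mean was 0.777% ± 0.205 in Relapsed and 0.492% ± 0.433 in Cured (SD, n = 2 each), a difference of 0.286 percentage points with a two-sided exact permutation p of 0.667, where 2 libraries against 2 cannot give less than 0.33. Without Cured replicate 1 the difference was -0.0205. A quasi-likelihood fit in edgeR to the cell counts of all 7 classes gave a log2 ratio of 0.64 (SE 0.80, adjusted p = 0.674). Intervals here and below cover counting error only.

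As a share of all monocytes chosen by the paired rules (classical plus non-classical), classical monocytes were 38.5% (27.7 to 50.2) and 24.8% (17.0 to 34.0) in Relapsed, and 24.1% (10.3 to 43.5) and 37.5% (27.4 to 48.5) in Cured. Each group had one library near the upper and one near the lower value. The means of 31.6% ± 9.68 in Relapsed and 30.8% ± 9.45 in Cured (SD, n = 2 each) differed by 0.797 points (exact permutation p = 0.667), and without Relapsed replicate 1 or Cured replicate 1 the sign turned, to -6.05 and -5.88. Blood of Cured replicate 1 was low in the other monocyte class too, with 22 non-classical cells against 48 and 82 in Relapsed and 55 in the other Cured library.

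**Figure D2:**
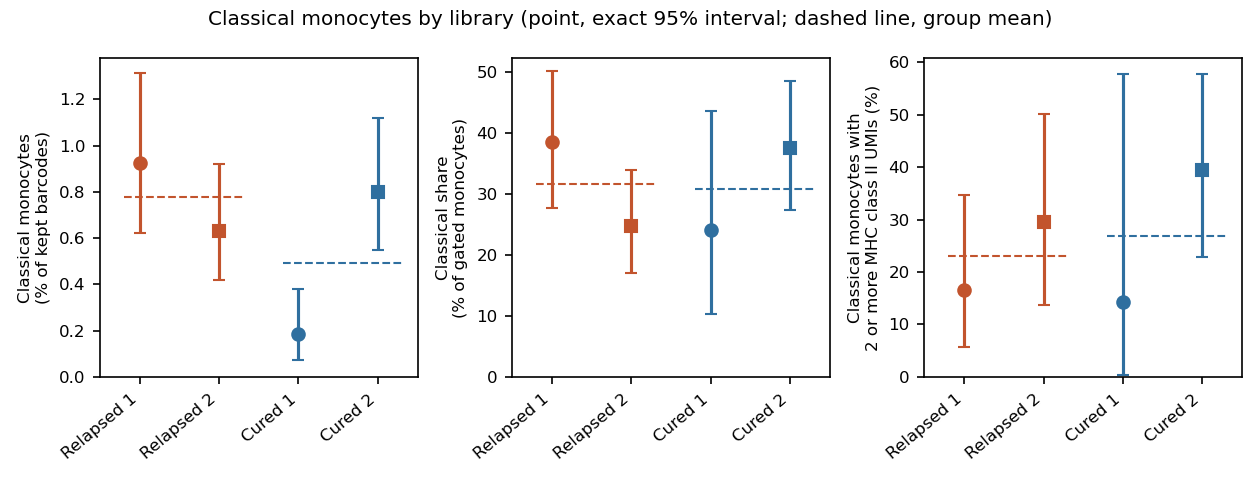
Panels from left to right give, per library, the share of classical monocytes among kept cells, their share among monocytes, and the share of classical monocytes with at least 2 MHC class II UMIs, all in percent. Points are libraries with exact 95% binomial intervals, dashed lines are group means, and in each panel the Relapsed and Cured libraries overlap (0.923% and 0.632% against 0.185% and 0.798% in the first).

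The members were not all alike in Lyz2, a gene detected in most monocytes of both classes. Of the 97 cells, 10 had under 10 Lyz2 UMIs, 5 and 0 in the Relapsed libraries and 1 and 4 in the Cured libraries. Their median total was 5615 UMIs, so they were not shallow. Of these 10 cells, 7 carried at least 3 UMIs summed over the dendritic cell genes Flt3, Xcr1, Clec9a, Cd209a, Zbtb46 and Siglech, against 11 among all members. At least 3 UMIs of the NK genes were carried by 5 of the 10, against 5 among all members. Over the full list of 12 dendritic cell genes, 8 and 5 members in Relapsed and 2 and 13 in Cured had at least 3 UMIs. Of the 10 cells, 1 in Cured replicate 1 had 14 UMIs of Siglech, a plasmacytoid dendritic cell gene. These cells meet the rule and lack the monocyte level of lysozyme, so each test of genes below was repeated without them.

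MHC class II presents peptides to CD4 T cells, and its genes H2-Aa, H2-Ab1 and H2-Eb1 gave at least 2 UMIs in a minority of classical monocytes. The share was 5 of 30 (16.7%, 5.64 to 34.7) and 8 of 27 (29.6%, 13.8 to 50.2) in Relapsed, and 1 of 7 (14.3%, 0.361 to 57.9) and 13 of 33 (39.4%, 22.9 to 57.9) in Cured. The highest and the lowest share belonged to Cured, and both Relapsed values lay between them. Group means were 23.1% ± 9.17 in Relapsed and 26.8% ± 17.8 in Cured (SD, n = 2 each), a difference of -3.69 points (exact permutation p = 1.00). The sign turned without Relapsed replicate 1 (2.79) or Cured replicate 2 (8.86), and with every cell thinned to 1500 UMIs (2.17). Thinning left out 2 and 1 Relapsed cells and 0 and 3 Cured cells, and gave 17.9% and 30.8% in Relapsed and 14.3% and 9 of 30 cells in Cured. Over all libraries the unthinned share was 27.8% at a median of 5199 UMIs, against 3.45% of T cells at a median of 3214, 2.01% of NK cells at 1815 and 1.75% of neutrophils at 978.5. Non-classical monocytes had 19.8% at a median of 2156, with 12.5% and 15.9% in Relapsed and 22.7% and 30.9% in Cured, and the difference between the monocyte classes was not tested. With at least 1 UMI as the limit, classical monocytes had 26.7% and 37.0% in Relapsed, against 42.9% and 48.5% in Cured, without overlap (difference -13.8 points, exact permutation p = 0.33, the smallest possible). That p was 0.667 without Cured replicate 2, and with cells thinned the difference was 0.760. B cells, the class with the most MHC class II RNA, had 99.4%.

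Among the 87 members with at least 10 Lyz2 UMIs, Chil3 was less often detected in the cells richest in MHC class II RNA. It was detected in 6 of 16 cells with at least 10 MHC class II UMIs (37.5%), in 5 of 7 cells with 2 to 9 and in 50 of 64 cells with fewer than 2 (78.1%). The richest cells had medians of 5.5 Ly6c2, 1 Fn1 and 79.5 Lyz2 UMIs at a median total of 4587, and those with fewer than 2 had 12, 5 and 170.5 at 5215. Cd209a, a lectin gene of monocyte-derived dendritic cells, was found in 5 of the 16 and in 0 of the 64. At least 3 UMIs summed over Flt3, Xcr1, Clec9a, Cd209a, Zbtb46 and Siglech were carried by 4 of the 16 and 0 of the 64. Whether those 4 cells are monocytes was not tested. The MHC class II-high cells came from every library, with 3 and 6 in Relapsed and 1 and 6 in Cured, and Chil3 was found in 0 and 3 of those in Relapsed and 1 and 2 of those in Cured. Among cells with fewer than 2 MHC class II UMIs it was found in 17 of 22 and 16 of 19 in Relapsed, and in 5 of 5 and 12 of 18 in Cured. The groups of cells were drawn from the same counts, Fn1 belongs to the rule, and depth differed between them, so the values are a description. Of 15 genes listed for the neutrophil-like form, 3 had enough counts to be tested between outcomes. Cd177 was found in 29 members and Mmp8 in 25. Camp, Ltf and Ly6g, which marks mature neutrophils, were found in 0, and S100a8 and S100a9 in the small shares given above. The rule itself had capped the neutrophil genes Csf3r, Cxcr2 and Retnlg.

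**Figure D3:**
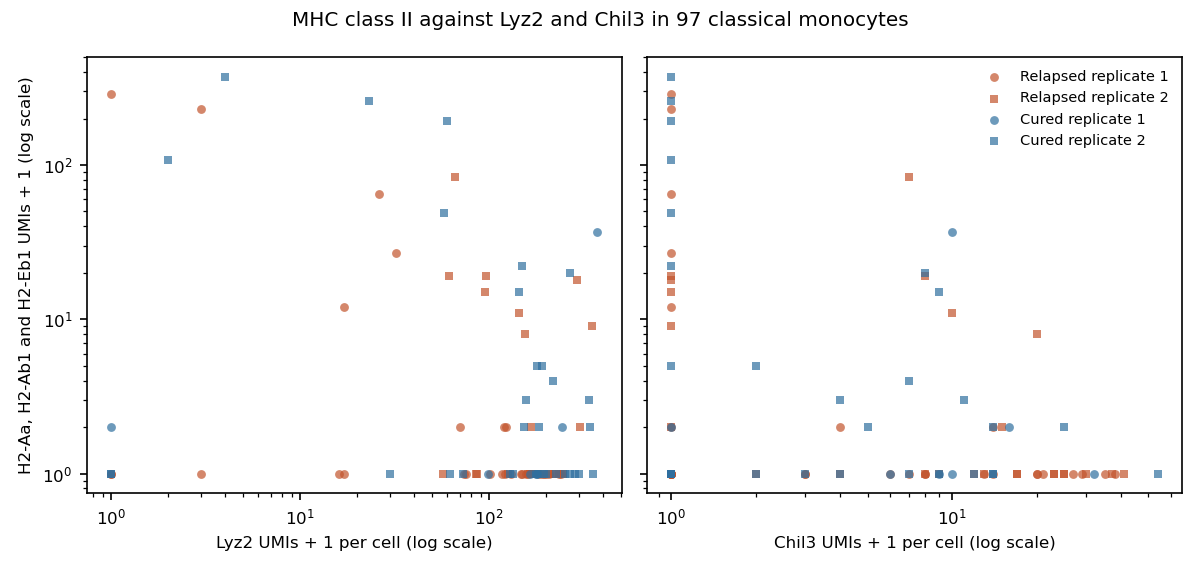
Each point is 1 classical monocyte, with its summed MHC class II UMIs on the vertical axis and its Lyz2 UMIs (left) or Chil3 UMIs (right) on the horizontal axis, on log scales of UMIs plus 1, coloured by outcome and shaped by replicate. Of cells with at least 10 MHC class II and 10 Lyz2 UMIs, 6 of 16 carry Chil3, against 50 of 64 with fewer than 2.

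Set against non-classical monocytes of the same pools, classical monocytes were higher in genes of the S100 and annexin group and of lysozyme, and lower in most tested regulators and trafficking genes. UMIs were summed per class and library and fitted in edgeR with the library as a block, leaving the 21 genes of the choice untested. Of 1839 genes tested 503 passed an adjusted p of 0.05 (27.4%), 218 higher (11.9%) and 285 lower (15.5%) in classical monocytes, with an all-gene median log2 ratio of -0.02. Because the classes were sorted on expression, genes that vary together with the sorting genes differ by how the classes were drawn. Values below are CPM, UMI counts divided by the total of the class in that library after scaling within this fit and brought to a common size, in the order Relapsed replicates 1 and 2 and Cured replicates 1 and 2. One barcode among the non-classical monocytes of Relapsed replicate 2 brought that class to 4546 neutrophil-gene UMIs there, against 5 in the other Relapsed library and 11 and 24 in Cured, and 404 genes were called without that library.

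The sorting genes, whose separation the choice of cells fixed, had the following levels. Fn1 stood at 1087, 1431, 802 and 591 CPM in classical monocytes, against 10.8, 17.1, 27.7 and 47.2 CPM in non-classical monocytes. Ccr2 stood at 1204, 1011, 867 and 794 CPM in classical monocytes, against 96.8, 62.7, 83.0 and 155 CPM. Cd300e, an activating receptor of the patrolling class, had no UMI in classical monocytes.

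Ly6c2 (ENSMUSG00000022584, GRCm38 chromosome 15, 75108158 to 75111970, minus strand), whose promoter is printed above, had 2750, 3599, 5007 and 2475 CPM in classical monocytes, against 118, 228, 138 and 803 CPM in non-classical monocytes. Every classical value exceeded every non-classical value, but the fitted log2 ratio of 3.28 (SE 0.71) missed the threshold (edgeR adjusted p = 0.0549). It passed under DESeq2 (adjusted p = 1.5e-06), without the cells with few Lyz2 UMIs (edgeR adjusted p = 0.042), without the library block (edgeR adjusted p = 0.0095) and without Cured replicate 2, where the ratio was 4.34. It also passed with no lineage UMIs allowed, with cells thinned and without cells with haemoglobin or NK UMIs. Reads of its near copy Ly6c1 could have been split between the genes, since no source used here gives the counting rule.

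Among genes of secreted proteins several were higher without overlap. Chil3 had 2274, 2971, 2471 and 1221 CPM in classical monocytes, against 237, 604, 387 and 520 CPM (log2 2.23, SE 0.27, edgeR adjusted p = 0.000235). Wfdc17, a secreted antiprotease-like protein made by activated macrophages, followed with 2256, 1412, 1733 and 1418 CPM, against 194, 217, 359 and 358 CPM (log2 2.59). Slpi, a secreted inhibitor of neutrophil elastase, rose by 2.72 on the log2 scale in classical monocytes and Hp by 1.02. The other genes with the steepest increase under the naming rule included Tmem176b, a membrane protein gene of myeloid cells (2.34), Glipr2 (2.37) and Hopx, an atypical homeodomain gene (2.28).

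The S100, annexin and cytoskeleton list moved as a group: 9 of its 10 tested members were higher, 0 were lower, and the median log2 ratio was 1.13. Vim, the intermediate filament vimentin, had 2498, 2652, 4814 and 5179 CPM in classical monocytes, against 538, 792, 885 and 1491 CPM, with the classes apart in every library (log2 1.98, SE 0.14, edgeR adjusted p = 1.69e-12). S100a10, which pairs with annexin A2 at the membrane, rose by 2.68 (SE 0.21) and S100a6, a calcium sensor, by 1.49 (SE 0.14). Lgals1 (galectin-1) rose by 2.48 (SE 0.21). Outside this list, Capg, which caps actin filaments, rose by 2.96 (SE 0.27).

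Of the 21 antimicrobial and lysosomal genes tested, 8 were higher and 2 lower in classical monocytes, with a median log2 ratio of 0.24. Lyz2 had 27716, 42180, 39411 and 34781 CPM in classical monocytes, against 9928, 16016, 12111 and 15926 CPM, without overlap (log2 1.42, SE 0.09, edgeR adjusted p = 1.27e-12). Lgals3 (galectin-3) rose by 1.25 and Ctsc, the cathepsin that activates granule proteases, by 1.32. Ctsb, a lysosomal cysteine protease, had 737, 793, 834 and 932 CPM in classical monocytes, against 2098, 2331, 2295 and 2362 CPM (log2 -1.46, SE 0.14).

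Transcription factors divided the classes. Of 11 tested regulators 3 were higher and 6 lower, and the median was -0.79. Nr4a1 (ENSMUSG00000023034, chromosome 15, 101254269 to 101274795, plus strand) had 126, 118, 32.1 and 217 CPM in classical monocytes, against 1054, 889, 1161 and 756 CPM. No classical library came near the non-classical range, and the log2 ratio was -2.64 (SE 0.24, edgeR adjusted p = 1.52e-09). Pou2f2, an octamer factor, had a log2 ratio of -2.41, Cebpb of -1.56 and the zinc finger gene Klf2 of -1.27, and Klf4 passed as lower too. Spi1, which encodes PU.1, fell by 0.79 (SE 0.16). In the other direction, Cebpd had a log2 ratio of 1.29 (SE 0.31, edgeR adjusted p = 0.00165) and Cebpa, needed for granulocyte and monocyte progenitors, of 1.15 (SE 0.39, edgeR adjusted p = 0.0245). Cebpa did not pass under DESeq2 (adjusted p = 0.114) or without Relapsed replicate 1, Relapsed replicate 2 or Cured replicate 2 (ratios 1.35, 0.93 and 1.36, edgeR adjusted p = 0.0672, 0.120 and 0.0582). Irf8, a factor of monocyte and dendritic development, had 171, 292, 738 and 466 CPM, against 108, 194, 83.0 and 196 CPM (log2 1.15, SE 0.26, edgeR adjusted p = 0.00101). Without the cells with few Lyz2 UMIs its ratio was 0.61 and no longer passed (edgeR adjusted p = 0.0612). Hes1, a target of Notch signalling, which promotes the non-classical fate, fell by 4.21 (SE 0.44).

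Promoter letters were counted among the genes called in either direction. Of 171 higher genes with a promoter in the table, 2.92% held the PU.1 letters, 9.36% the C/EBP letters and 1.17% the NR4A letters. Of 219 lower genes with one, the shares were 5.48%, 24 of 219 and 0.457%, and of all 1470 tested genes with one 2.79%, 9.46% and 0.680%.

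Trafficking genes were mostly lower in classical monocytes: 2 of 13 tested passed as higher, 8 as lower, and the median was -1.22. Itgal, the α chain of LFA-1, which holds patrolling cells to endothelium, had 180, 228, 96.3 and 125 CPM in classical monocytes, against 1377, 883, 747 and 844 CPM, a log2 ratio of -2.56 (SE 0.20). Spn (CD43), a surface sialoprotein used to tell non-classical monocytes apart, had a log2 ratio of -2.85 and S1pr5, the sphingosine phosphate receptor needed for their exit from marrow, of -2.80. The fractalkine receptor Cx3cr1, which supports survival of the patrolling class, had 171, 182, 64.2 and 144 CPM, against 495, 576, 304 and 310 CPM (log2 -1.48, SE 0.22). Itgb7, an integrin chain of gut homing, rose by 0.82 (SE 0.25), but did not pass under DESeq2 (adjusted p = 0.0867) or without Relapsed replicate 1 or 2 (0.80 and 0.77, edgeR adjusted p = 0.0796 and 0.0693).

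The steepest decrease among the 12 lower genes of the naming rule was that of Eno3. Eno3, the muscle form of enolase, had 2 UMIs over all classical monocytes and 201 over all non-classical monocytes, a ratio per summed UMI of 0.0109 (exact 95% interval 0.00132 to 0.0400). The BCL2-family survival gene Bcl2a1b had 3 and 210 UMIs in the same order, a ratio of 0.0157 (0.00321 to 0.0465). Bcl2a1a (2 and 75 UMIs, ratio 0.0293) and Bcl2a1d (log2 -4.65) are near-identical copies of it and are uncertain one from another. Lilra5, an activating immunoglobulin-like receptor, had 1 and 56 UMIs, and Dusp5, a phosphatase of ERK, 2 and 66. Pglyrp1, which binds bacterial peptidoglycan, had 117, 128, 225 and 45.9 CPM in classical monocytes, against 1700, 1938, 1548 and 972 CPM (log2 -3.83, SE 0.21). Ltb, a lymphotoxin chain, Grk3, a receptor kinase, Cyfip2, an actin regulator, and Ly6i, whose reads can be shared with other Ly6 genes, lay between -3.68 and -3.35.

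**Figure D4:**
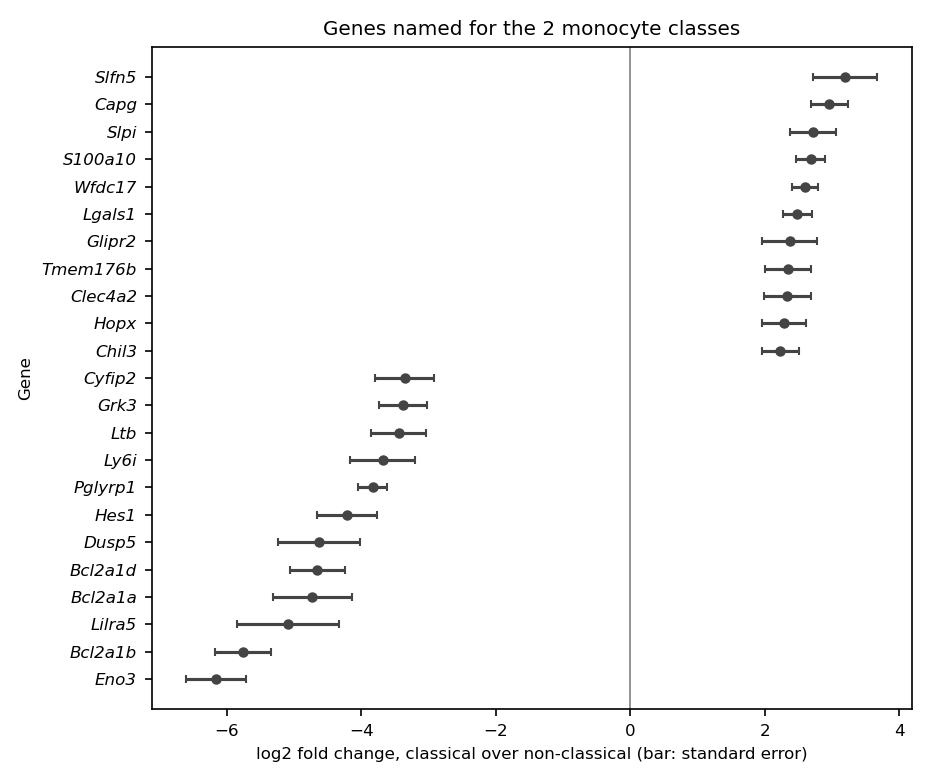
Log2 ratio of classical over non-classical monocytes with its standard error for genes at the top and the bottom under the naming rule, fitted with the library as a block. The values run between Slfn5 (3.19) and Eno3 (-6.15), and genes with 1 to 3 classical UMIs have fitted ratios that depend on the prior count.

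Receptors and their signalling kinases fell more often than they rose. Of 13 tested genes of Fc and related receptors 3 were higher and 6 lower (median -0.31), with Pilra, an inhibitory receptor, at -2.48, Fcer1g, the common signalling chain, at -0.58 and the lectin receptor gene Clec4a2 at 2.33. Kinases that dasatinib inhibits, or that act beside them, were tested in 4 cases, and 3 were lower (median -0.98). The SRC-family kinase gene Fgr had 198, 182, 193 and 256 CPM in classical monocytes, against 516, 490, 442 and 472 CPM, without overlap (log2 -1.20, SE 0.20, edgeR adjusted p = 2.58e-05). Csk, which restrains the family, had -0.97 and did not pass under DESeq2 (adjusted p = 0.0631). Lyn had a ratio of -0.27 (SE 0.18) that did not pass (edgeR adjusted p = 0.288).

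MHC class II genes were higher in classical monocytes where they passed, 3 of 6 tested, with a median of 1.37. H2-DMb1, a chain of the peptide editor, had 243, 200, 353 and 525 CPM, against 53.8, 45.6, 27.7 and 142 CPM (log2 2.10, SE 0.28, edgeR adjusted p = 9.68e-07). H2-Ab1 ranged more widely, at 1636, 565, 481 and 2369 CPM, against 312, 319, 332 and 1046 CPM (log2 1.33, SE 0.21), and did not pass without the library block (edgeR adjusted p = 0.231). The classical sums of H2-Aa, H2-Ab1 and H2-Eb1 rest in part on few cells. At least 100 of these UMIs were found in 6 members, 2 in Relapsed replicate 1 and 4 in Cured replicate 2. These 6 had a median of 2.5 Lyz2 UMIs and no Chil3 UMI, and all 6 carried UMIs of dendritic cell genes. Among them, 4 belonged to the cells with few Lyz2 UMIs. H2-Aa had a ratio of 1.29 that did not pass (SE 0.55, edgeR adjusted p = 0.208), and passed under DESeq2 (1.18), at a gate minimum of 3 (1.28), when thinned (1.63), without cells with haemoglobin or NK UMIs, at 0.43 without the cells with few Lyz2 UMIs and at 0.79 without Relapsed replicate 1. MHC class I went the other way, with 1 of 11 higher and 4 lower (median -0.15), among them H2-K1 with 1438, 1485, 1155 and 1562 CPM, against 3227, 2878, 3152 and 2936 CPM (log2 -1.08, SE 0.13), and B2m, the shared light chain (-0.85).

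Interferon-response genes were more often higher: of 20 type I genes 9 rose and 3 fell (median 0.69). Ms4a4c had 665, 775, 674 and 630 CPM in classical monocytes, against 172, 114, 138 and 229 CPM, without overlap (log2 2.04, SE 0.21, edgeR adjusted p = 9.05e-09). Ifi203, an AIM2-like DNA sensor, rose by 1.98, Slfn1, a gene of the Schlafen family, by 1.99 and its relative Slfn5 by 3.19. Bst2, also on the dendritic list, rose by 1.53 (SE 0.37), but did not pass without Relapsed replicate 2 (edgeR adjusted p = 0.193), with a gate minimum of 3 (edgeR adjusted p = 0.0566) or without the library block (edgeR adjusted p = 0.0678). Of 6 genes induced by interferon gamma, the GTPase gene Ifi47 rose by 1.52, the factor gene Irf1 fell by 1.06, and the median was 0.00. Among cytokine genes 2 of 7 rose and 3 fell (median -0.80): Il1b had 71.9, 72.9, 64.2 and 32.8 CPM, against 237, 365, 581 and 202 CPM (log2 -2.32, SE 0.30), and the chemokine genes Ccl6 and Ccl9 rose by 0.91 and 1.29. In pattern recognition the RNA sensor Tlr7 stood at -1.88 and the inflammasome adaptor Pycard at 0.84, 1 of 7 in either direction (median -0.25). These shares are near those of all genes tested, 11.9% higher and 15.5% lower. In the complement and coagulation list Tgfbi, a matrix protein gene, rose by 1.12 and C3 by 0.94, as 2 of 4 tested (median 0.59). C3 did not pass under DESeq2 (adjusted p = 0.158), without Relapsed replicate 1 or 2 (0.72 and 0.65, edgeR adjusted p = 0.226 and 0.214) or without the library block (edgeR adjusted p = 0.0614). Pycard missed under DESeq2 (adjusted p = 0.0566) and without Relapsed replicate 2 (0.65, edgeR adjusted p = 0.0832), and Irf1 under DESeq2 (adjusted p = 0.0713).

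Between outcomes, few genes of classical monocytes separated. UMIs summed over the members of each library were fitted in edgeR, and 3 of 1898 tested genes passed (0.158%), Lars2 higher (0.0527%) and Vim and Fdps lower (0.105%) in Relapsed. At an unadjusted p of 0.05 there were 103. The 1898 include genes of the choice, which were left out of testing only between the classes. The libraries of the groups did not overlap for 673 genes (35.5%), 352 higher (18.5%) and 321 lower (16.9%) in Relapsed, and the median log2 ratio of all genes was 0.02. CPM values below are on library sizes scaled within this fit, so they differ slightly from those above. The p-values rest on spread between pools of 3 mice. That spread was estimated largely across genes rather than from each gene alone (median prior degrees of freedom 22.8). In these sums more RNA per cell and more expressing cells cannot be told apart except where counts of cells are given.

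Vim (ENSMUSG00000026728, chromosome 2, 13573927 to 13582826, plus strand) had 2452 and 2545 CPM in Relapsed, against 4699 and 5019 CPM in Cured. Both Relapsed values were lower than both Cured values, by -0.96 on the log2 scale (SE 0.18, edgeR adjusted p = 0.0107). The median UMIs per cell were 7 and 10 in Relapsed, against 15 and 16 in Cured, so the difference was not carried by a few cells. It passed under DESeq2 (adjusted p = 0.0116), but not without Cured replicate 2 (-0.89, edgeR adjusted p = 0.100), with cells thinned to 1500 UMIs (-0.92, edgeR adjusted p = 0.179), with no filter on low counts (-0.87, edgeR adjusted p = 0.689), with no lineage UMIs allowed (-0.93, edgeR adjusted p = 0.182) or with the replicate number as a block (-0.96, edgeR adjusted p = 0.928). Vim was lower in Relapsed without overlap in non-classical monocytes also, at 445 and 652 CPM of the class sum, against 745 and 1271 CPM. The same held in NK cells, at 619 and 838 CPM against 1201 and 1301 CPM, and in T cells, at 202 and 318 CPM against 320 and 394 CPM, while in neutrophils and B cells the groups overlapped.

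Lars2 (ENSMUSG00000035202, chromosome 9, 123366927 to 123462666, plus strand), the mitochondrial leucyl-tRNA synthetase gene, had 2778 and 2711 CPM in Relapsed, against 1566 and 1190 CPM in Cured. Relapsed was higher without overlap, by 1.04 (SE 0.21, edgeR adjusted p = 0.0244). It was detected in 28 of 30 and 25 of 27 Relapsed cells and in 6 of 7 and 30 of 33 Cured cells, with up to 92 and 65 UMIs in 1 cell in Relapsed and up to 32 and 29 in Cured. It did not pass under DESeq2 (adjusted p = 0.116). In edgeR it also missed without Cured replicate 2 (0.83, adjusted p = 0.474), with no filter on low counts (adjusted p = 0.129), with cells thinned to 1500 UMIs (adjusted p = 0.179), with no lineage UMIs allowed (adjusted p = 0.293) and with the replicate number as a block (adjusted p = 0.928). Gm42418, a gene that overlaps ribosomal RNA sequence, moved with it, at 22359 and 24221 CPM of the class sum in Relapsed, against 19219 and 8066 CPM in Cured, and its part in the result was not tested. Lars2 was higher in Relapsed without overlap in B cells also, at 1697 and 1156 CPM against 1014 and 1074 CPM. In non-classical monocytes, neutrophils, T cells and NK cells its groups overlapped. Gm42418 was higher without overlap in B, T and NK cells, and overlapped in non-classical monocytes and neutrophils.

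Fdps (ENSMUSG00000059743, chromosome 3, 89093588 to 89101959, minus strand), farnesyl diphosphate synthase of the isoprenoid and cholesterol pathway, had 26.5 and 8.75 CPM in Relapsed, against 125 and 223 CPM in Cured (log2 -3.43, SE 0.61, edgeR adjusted p = 0.0107). These values rest on 3 and 1 UMIs in Relapsed, in 2 and 1 cells, against 4 and 35 UMIs in Cured, in 3 and 10 cells, with 14 UMIs in 1 cell. The annotated genes Gm43738 and Gm22935 overlap it on the same strand. It did not pass under DESeq2 (adjusted p = 0.999) or with the replicate number as a block (edgeR adjusted p = 0.928), and its counts were too low to be tested without Cured replicate 2, with thinned cells, with no lineage UMIs allowed or without the cells with few Lyz2 UMIs.

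The number of calls moved with the libraries: it was 7 without Relapsed replicate 1, 19 without Relapsed replicate 2 and 12 without Cured replicate 1, and these included the 3 genes. Without Cured replicate 2 it was again 3, none of them these. The 19 included haemoglobin genes and the NK genes Gzma, Ccl5 and Nkg7, whose UMIs lie in few cells of Relapsed replicate 1. Every fit that left out a library had a group without replicate pools, and Fn1, a gene of the choice, was among the calls without Relapsed replicate 1. Leaving out the 10 cells with few Lyz2 UMIs gave 8 calls, with Slpi, Scaf11, Gda, Apoe, H2-Ab1 and H2-Eb1 beside Vim and Lars2.

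Other genes under the naming rule separated the libraries without passing. Gda, guanine deaminase, had 362 and 262 CPM in Relapsed, against 157 and 89.1 CPM in Cured (log2 1.58, SE 0.38, edgeR adjusted p = 0.130). Slpi had 406 and 507 CPM in Relapsed, against 313 and 134 CPM in Cured (log2 1.37, SE 0.35, edgeR adjusted p = 0.180). Scaf11, a splicing factor gene, had 573 and 455 CPM in Relapsed, against 62.7 and 229 CPM in Cured (log2 1.43, SE 0.34, edgeR adjusted p = 0.130). Scaf11 was also higher in Relapsed without overlap in B cells, at 1496 and 1426 CPM of the class sum against 893 and 934 CPM, in T cells, at 1243 and 1485 CPM against 763 and 965 CPM, and in non-classical monocytes, at 845 and 759 CPM against 605 and 385 CPM. Ppp2r5a, a regulatory subunit of phosphatase PP2A, had 185 and 184 CPM in Relapsed, against 0 and 57.2 CPM in Cured (edgeR adjusted p = 0.254). On the lower side Irf8 had 168 and 280 CPM in Relapsed, against 721 and 452 CPM in Cured (log2 -1.25, SE 0.32, edgeR adjusted p = 0.180). Of its 23 and 71 Cured UMIs 16 and 31 lay in 1 cell each, and 7 and 36 in cells with at least 10 Lyz2 UMIs. Without the cells with few Lyz2 UMIs the log2 ratio was -0.26 (SE 0.34, edgeR adjusted p = 0.937), while it was -1.65 without Relapsed replicate 2 and -1.66 without Cured replicate 2. Tagln2, a transgelin that binds actin, had 785 and 481 CPM in Relapsed, against 1065 and 1393 CPM in Cured (edgeR adjusted p = 0.180). Trf (transferrin) and H2-DMb1 had log2 ratios of -1.28 and -1.09 (edgeR adjusted p = 0.254 each). Leaving out a library left a group without replicate pools, so only ratios are given. They are shown, for Irf8 too, only for the leave-outs in which the gene passed the threshold. The other leave-outs of each gene are not given, so these ratios do not show how steady a gene was. The log2 ratio of Gda was 1.78 without Relapsed replicate 2 and 1.78 without Cured replicate 1. That of Slpi was 1.58 without Relapsed replicate 1 and 1.75 without Cured replicate 1. That of Scaf11 was 1.52 without Relapsed replicate 2 and 3.02 without Cured replicate 2. That of Tagln2 was -1.38 without Relapsed replicate 1 and -1.16 without Cured replicate 1.

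**Figure D5:**
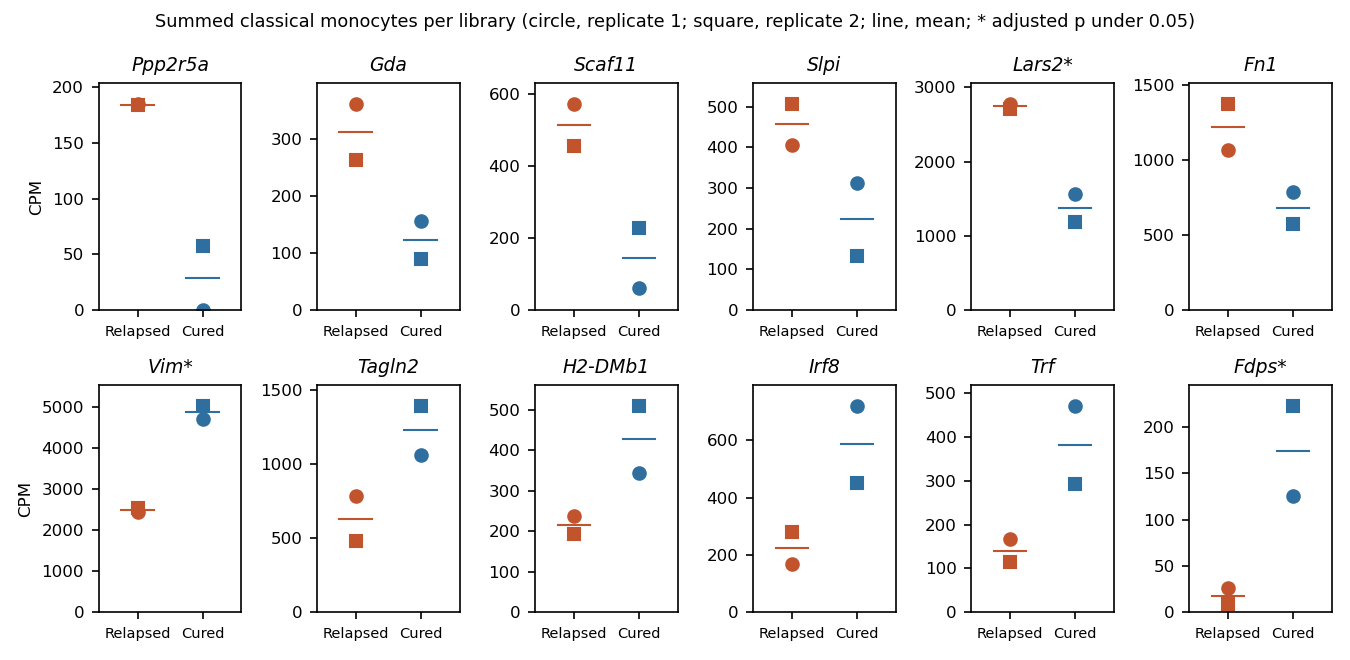
CPM in each library for the 12 genes named by rule in the comparison of outcomes, Relapsed left of Cured, 1 panel a gene. Vim lies at 2452 and 2545 CPM in Relapsed against 4699 and 5019 CPM in Cured, and the groups do not overlap in any panel because the rule asked for that.

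Marker genes of the class were compared by outcome, those the choice read as a description. Lyz2 had 27200 and 40483 CPM in Relapsed, against 38469 and 33707 CPM in Cured (log2 -0.09, SE 0.16), and Ly6c2 had 2699 and 3454 CPM in Relapsed, against 4887 and 2398 CPM in Cured (log2 -0.19, SE 0.30). Both overlapped between groups, and both signs turned in some of the other settings. Fn1 had 1067 and 1373 CPM in Relapsed, against 783 and 572 CPM in Cured, and F13a1 had 538 and 717 CPM in Relapsed, against 345 and 382 CPM in Cured. These genes were read by the choice of members. Chil3 had 2231 and 2851 CPM in Relapsed, against 2412 and 1183 CPM in Cured (log2 0.60, SE 0.28, edgeR adjusted p = 0.889), and the groups overlap. Its log2 ratio was 1.08 without Cured replicate 1, the library that makes them overlap. The other leave-outs of Chil3 are not given.

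In the lists by function, 0 genes other than Vim passed between outcomes, so the following are values only. All 7 tested genes induced by interferon gamma had negative ratios (median -0.33), among them the GTPase gene Gbp2 at -0.87 and the immunoproteasome gene Psmb10 at -0.48. The groups did not overlap for 3 of the 7, all lower in Relapsed. Of all genes tested, 35.5% did not overlap, 18.5% higher and 16.9% lower in Relapsed. Of 22 type I interferon genes 12 had positive ratios (median 0.03). Irf7, the amplifier of that response, had 159 and 201 CPM in Relapsed, against 313 and 337 CPM in Cured (log2 -0.87, SE 0.32, edgeR adjusted p = 0.565). MHC class II had 1 positive of 7 (median -0.34), with Cd74, the invariant chain, at 5601 and 3507 CPM in Relapsed, against 2600 and 9268 CPM in Cured, where the groups overlap. Without Cured replicate 1 the log2 ratio of Cd74 was -1.05, and without Cured replicate 2 it was 0.82, so its sign turned with the Cured library left out. MHC class I had 5 positive of 11 (median -0.02), regulators 5 of 13 (-0.05), trafficking 6 of 11 (0.20), Fc and related receptors 6 of 12 (0.05), kinases 1 of 4 (-0.12) and antimicrobial genes 7 of 20 (-0.11). Mitochondrially encoded genes had 10 positive of 12 (median 0.33), with no overlap for 8 higher and 1 lower, against 18.5% and 16.9% of all genes tested. Among them mt-Nd1, a subunit of complex I, had 741 and 682 CPM in Relapsed, against 219 and 458 CPM in Cured (log2 0.87, SE 0.29, edgeR adjusted p = 0.439).

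Whether the outcome difference itself was unlike that in non-classical monocytes was tested by an interaction term, again with libraries as blocks. No gene of 2479 passed in edgeR (0%; 88 at an unadjusted p of 0.05) or in DESeq2 (6 at an unadjusted p of 0.05). Genes of the choice were among the 2479. The difference of the log2 ratios, classical minus non-classical, was 1.00 for Lars2 (SE 0.30, edgeR adjusted p = 0.652), -0.08 for Vim (SE 0.30), -2.86 for Fdps (SE 1.42) and 0.53 for Scaf11 (SE 0.42). Nothing here was thus shown to be particular to classical monocytes in its relation to outcome.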

How the data were processed

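The values deposited by the authors were raw UMI counts per gene and barcode, 1 matrix a library, of peripheral blood leukocytes prepared with the 10x 5′ kit per the labels' protocols. The submitters' processing notes name Cell Ranger 3.1.0 and mm10, and the annotation release and counting rule were not given in the sources used here. Of 32287 features, 32235 matched GENCODE M21 on GRCm38, which gave coordinates. Python 3.11.15 read the matrices, and no doublets were called. Class sums per library were tested with edgeR 4.0.16 in R 4.3.3 (filterByExpr, TMM, quasi-likelihood, Benjamini-Hochberg threshold 0.05), with DESeq2 1.42.0 as an alternative, and shares with exact permutation in scipy 1.17.1. Scripts were tested on simulated data. Genes were named by rule: for outcomes 6 per direction by p with no overlap and a mean of at least 20 CPM, and for classes 12 per direction by ratio with the same sign in 4 libraries and at least 100 CPM, plus markers and up to 4 members a list. The rule passed over antigen receptor segments, predicted genes, ribosomal, mitochondrial and sex-linked genes, and genes outside the rule (H2-Aa, Lyn, Gm42418, mt-Nd1 and those called only in another setting) were named after their values were seen. The members and lists were chosen with earlier results of these data known. Both classes of 1 library came from the same pool, so the library was a block between classes. A few genes that the rule would name are not reported here.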

Additional observations from a re-analysis of the deposited data

How the results depend on the processing

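The comparison of outcomes called 3 genes. The count was 1 under DESeq2 or with no lineage UMIs allowed, 8 with a gate minimum of 3, 0 with cells thinned to 1500 UMIs (30 at an unadjusted p of 0.05), and 3 to 19 leaving out 1 library. Chosen after seeing the data, leaving out cells with under 10 Lyz2 UMIs gave 8, and leaving out cells with haemoglobin or NK UMIs gave 6. Same-numbered Relapsed and Cured libraries share only a number (correlation of deviations 0.012), and with the replicate number as a block the count was 0 (89 at an unadjusted p of 0.05) and the log2 ratio of cell counts 0.78. The classical over non-classical comparison called 503, 287 under DESeq2, 183 of 625 tested when thinned, 449 with no replicate block and 360 to 542 leaving out 1 library. The interaction called 0, and 1 with no filter, 2 with no lineage UMIs, 1 without low-Lyz2 cells and 0 to 4 leaving out 1 library. Leaving out 1 library moved the difference in share of kept cells between -0.0205 and 0.592 points, in share of monocytes between -6.05 and 7.64, and in MHC class II share between -16.2 and 8.86. That last was -3.69, and 2.17 when thinned, 0.854 at a limit of 4 UMIs and -13.8 at a limit of 1. Signs by outcome turned for Lyz2 (0.030) and Ms4a6c (0.057) with no filter, and for Ly6c2 when thinned (0.15) and without haemoglobin or NK cells (0.0046). Leaving out 1 library gave -0.42 to 0.19 for Lyz2, -0.26 to 0.14 for Ms4a6c, -0.65 to 0.34 for Ly6c2, -1.53 to 1.20 for H2-Ab1 and -1.05 to 0.82 for Cd74. The causes were not tested. Cured replicate 1 held 7 of the cells, and there were 2 pools a group.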

Other observations

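Further gene groups were read in the comparison of classical with non-classical monocytes, where 27.4% of tested genes passed. Immediate early genes, which respond within minutes to stimulation and to handling of cells, had 2 higher and 5 lower of 13 tested (median log2 -0.19). Fos had 2993, 3062, 2279 and 3269 CPM in classical monocytes, against 2280, 1704, 2019 and 2153 CPM in non-classical monocytes (log2 0.54, SE 0.12, edgeR adjusted p = 0.00124), while the phosphatase gene Dusp2 fell by 2.24. Heat shock genes had 2 higher and 1 lower of 9 (median 0.13).

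Of the cell cycle list 4 of 26 genes were tested, and H2afz, a histone variant gene also expressed outside division, had 1717, 1986, 1476 and 1976 CPM in classical monocytes, against 559, 787, 553 and 884 CPM (log2 1.36, SE 0.15, edgeR adjusted p = 1.7e-08). The other 3 did not pass. Glycolysis had 2 higher of 9 tested, Hk2 (hexokinase) by 0.87 and Pgam1 (a mutase) by 0.71, with a median of 0.14. Neither passed under DESeq2 (adjusted p = 0.257 and 0.205) or without Relapsed replicate 2 (0.53 and 0.61, edgeR adjusted p = 0.322 and 0.246), and Hk2 also missed without Cured replicate 2 (0.78) and Pgam1 without Relapsed replicate 1 (0.61). Of 79 ribosomal protein genes 12 were higher and 1 lower (median 0.13), and of 12 mitochondrially encoded genes 2 were higher (median 0.24).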
